A study of Mus musculus with 12 samples.

Results

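Late-passage cells were compared with early-passage cells in the mouse osteosarcoma lines Dunn and LM8 in 1 fit, to find the genes and functions that moved the same way in both lines. All 12 arrays of the 4 groups entered the comparison, 6 late (Dunn_86 and LM8_91) against 6 early (Dunn_25 and LM8_24), with the cell line as a covariate. Of 20144 genes with a matched probe, 12644 had a probe well above background on all 3 arrays of at least 1 group and were tested. Dunn is an osteoblastic mouse osteosarcoma line that seldom forms metastases, and LM8 was obtained from it by selection in animals for spread to the lung, so the lines are related and their changes are not those of unrelated tumours. Dunn cells were at passage 25 (early) and 86 (late), and LM8 cells at passage 24 (early) and 91 (late). Per the study's methods, late cells had been derived from the early cells by serial culture, and both were thawed and grown for a few further passages in the same medium with fetal calf serum before RNA was taken, without any treatment. Each group had 3 samples, which neither the labels nor the methods call separate cultures, so the spread between them may be technical. The p-values of the comparison over both lines measure only this spread and any difference in change between the lines. Those of tests within the lines measure only the spread between samples. A difference between the frozen stocks that were thawed cannot be told apart from an effect of passage.

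Serial passage selects for cells that grow well on plastic, and established lines are known to drift in expression as they are cultured. Interferon-stimulated genes are switched on when a secreted interferon binds its receptor and activates a transcription factor complex, which binds a DNA motif called the interferon-stimulated response element, and many cells keep a low tonic level of them. Basement membrane proteins, chiefly type IV collagen and laminins, form the sheet on which cells rest and to which integrins attach. Reproductive homeobox genes and other germline genes on the X chromosome are normally expressed in testis, ovary or placenta and are held silent in most somatic cells by DNA methylation.

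Values are log2 signals after subtraction of the array's 75th percentile, so that 0 is the 75th percentile of an array's probes, and they compare 1 gene between arrays, not different genes. The 75th percentile of the processed signal itself ran from 253 to 522 on early Dunn, 609 to 840 on late Dunn, 788 to 1148 on early LM8 and 1033 to 1699 on late LM8 arrays, and 39.1% to 59.7% of probes were well above background. Late Dunn replicate 1 stood apart from its group, with correlations of 0.944 and 0.947 to the other 2 replicates, which correlated at 0.98 with each other, and a median signal of 81.8 against 22.3 and 17. Osteoblast lineage markers were measured in both lines and stages. Of the 11 with a probe, 7 were well above background on all arrays, among them Runx2, Sp7, Ibsp and Col1a1. Another of these 7, Pth1r, was lower in late cells of both lines, as given below. Among markers of other cell types, the muscle regulators Myod1, Myog, Myf5 and Myf6, the epithelial genes Cdh1 and Krt8, and the endothelial genes Cdh5, Emcn, Erg and Tie1 were well above background on no array. The leukocyte genes Cd3e, Csf1r, Fcer1g and Itgam (4 of 11 with a probe), the endothelial genes Kdr and Vwf (2 of 8), the muscle gene Acta1 (1 of 8) and the neural gene Snap25 (1 of 8) were well above background on all arrays. So were the fibroblast genes Pdgfra, Pdgfrb and S100a4 (3 of 8), while the fibroblast gene Thy1 was on no array. The summed linear signal of the leukocyte list, in units of the array's 75th percentile, ran from 15.1 to 54.7 on early and from 11 to 32.6 on late arrays, and its part in the results was not tested. In a culture, fewer cells that express a gene and less RNA per cell cannot be told apart. Below, a gene is called below background on an array where its probe did not pass the array software's mark of well above background. Its signal may still lie over the background.

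More genes were lower than higher in late cells under this scaling. In the pooled fit, 149 genes (1.18% of those tested) were higher and 826 (6.53%) were lower, or 7.71% in either direction, in late cells at an adjusted p under 0.05. A gene was said to have moved the same way when it passed this test and its 3 late arrays lay all above or all below the 3 early arrays in each line. By this rule 110 genes (0.87%) rose and 609 (4.82%) fell, with median folds of 2.51 and 1.79. With no p asked, late and early arrays were apart on the same side in both lines for 143 genes higher (1.13%) and 961 lower (7.6%). Over 2-fold in each line, 52 genes (0.411%) rose and 124 (0.981%) fell. The median change of all genes was -0.15, with -0.24 in Dunn and -0.07 in LM8. The excess of falls depended on the scaling. With the 75th percentile taken only over probes that every array measured well above background, the median change was 0.03, 177 genes rose and 335 fell, and the share of pooled calls that were higher went from 15.3% to 34.7%. In the deposited table, which carries no scaling, that share was 87.5% and the median change 0.52. Changes below are therefore read against the median of all genes, and lists against these percentages.

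The change within each line was also tested, in a fit of all 4 groups with 1 shared estimate of the spread per probe. By that test, 1272 genes (10.1%) changed in Dunn and 466 (3.69%) in LM8, and of those that changed in both, 115 were lower in both, 37 higher in both and 20 went in opposite directions. The size of the change differed between the lines for 304 genes (2.4%), of which 49 were among the 719 that moved the same way. Of these 719 genes, 9 were below background on all 6 arrays of a line, 1 of them among the rises and 8 among the falls, so that their direction in that line rests on dim signals. Dim signals touched the rises more widely, since 44 of the 110 rises and 520 of the 609 falls were well above background on all 12 arrays, and 24 of the rises were tested only because a late group was bright. For named genes, 21 of the exact folds are set against a dim group of which only 1 array (6 folds) or 2 arrays (15 folds) of 3 were well above background.

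**Figure D1:**
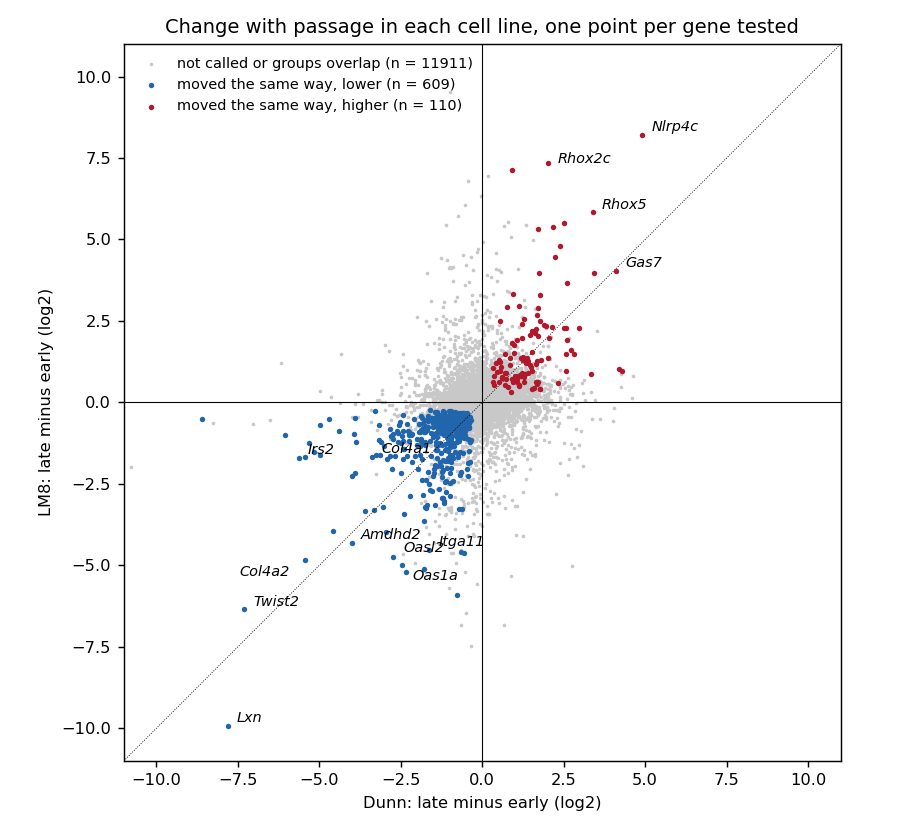
Change with passage in Dunn (horizontal axis, late minus early, log2) and LM8 (vertical axis, late minus early, log2), one point per gene with a value in both lines. Blue points are the 609 genes that fell and red points the 110 that rose in both lines, and the dotted line marks equal change. Lxn, Twist2 and Col4a2 lie near that line at the lower left, while Nlrp4c, Rhox5 and Rhox2c lie above it at the upper right.

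The largest falls shared by both lines were in Lxn, Twist2 and Col4a2. Lxn encodes latexin, a carboxypeptidase inhibitor known for limiting the number of blood stem cells. Its signal was 1.28, 0.82 and 1.39 on the early Dunn arrays and -4.82, -7.79 and -7.32 on the late ones. In LM8 it was 1.62, 1.49 and 1.55 early and -7.98, -8.77 and -8.36 late. Late cells of both lines were below background, on every array, so the fall was at least 99.9-fold in Dunn and at least 304-fold in LM8 (pooled change -8.87 ± 0.52, SE, adjusted p = 1.5e-05). The interaction test called no difference between the lines (adjusted p = 0.367).

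Twist2, a basic helix-loop-helix factor of mesenchymal cells that holds back osteoblast differentiation, was 0.25, 0.20 and 0.91 in early Dunn and -4.19, -8.33 and -8.07 in late Dunn. In LM8 it went from -2.09, -2.85 and -2.58 to -8.59, -9.19 and -8.79. Both late groups were again below background on all arrays, for a fall of at least 60.9-fold in Dunn and at least 18.2-fold in LM8 (pooled change -6.83 ± 0.60, adjusted p = 0.000184). Late Dunn replicate 1 was the least low of the late Dunn arrays for Lxn, Twist2, Col4a2 and Amdhd2, and all 4 kept their calls without it.

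Amdhd2, an enzyme of amino sugar breakdown, was measured on every array and fell 16-fold in Dunn, or 35.5-fold without late Dunn replicate 1, and 19.8-fold in LM8 (pooled change -4.15 ± 0.52, adjusted p = 0.00128). Gdpd2, a glycerophosphodiester phosphodiesterase linked to osteoblast differentiation, fell by at least 5.07-fold in Dunn, where the late arrays were below background, and by 15.5-fold in LM8 (pooled change -4.27 ± 0.42, adjusted p = 0.000316). Gm1673, a predicted gene, fell by at least 10.5-fold in Dunn and by 3.16-fold in LM8 (pooled change -3.55 ± 0.65, adjusted p = 0.0105). Apol9b, an apolipoprotein L gene that interferon is known to induce, fell 7.72-fold in Dunn and 15.8-fold in LM8 (pooled change -3.46 ± 0.32, adjusted p = 0.000224), though its probe may also read its near-identical neighbour Apol9a.

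**Figure D2:**
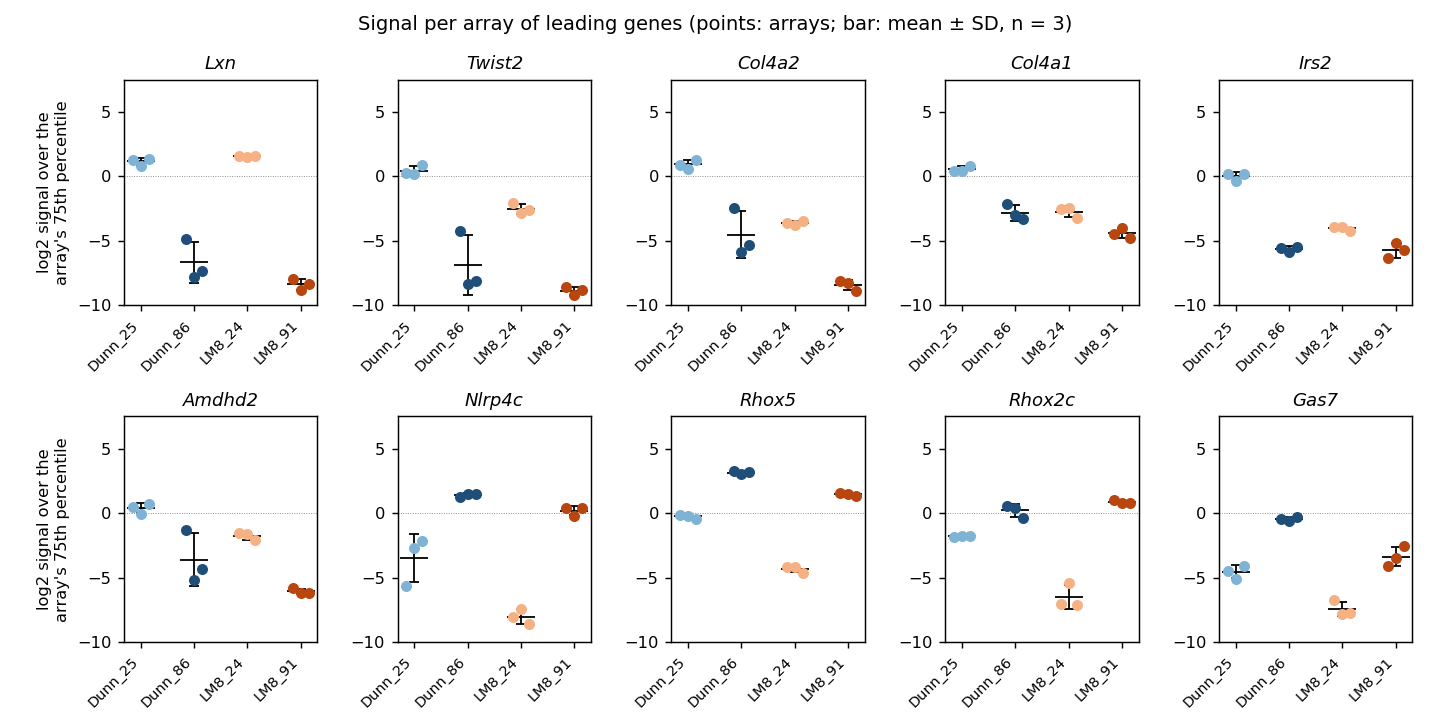
Log2 signal over the array's 75th percentile (vertical axis) for 10 leading genes in the 4 groups (horizontal axis). Points are arrays, the bar is the mean and the whiskers the SD over 3 arrays, and the dotted line is the 75th percentile. Late points lie below early points in both lines for Lxn, Twist2, Col4a2, Col4a1, Irs2 and Amdhd2, and above them for Nlrp4c, Rhox5, Rhox2c and Gas7.

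The interferon response was the list with the highest share of genes that moved the same way. Of 46 listed genes, 36 were tested, and 15 of them (41.7%) fell in both lines, against 4.82% of all genes, while none rose. The pooled test of limma alone called 18 lower and 0 higher (6.53% and 1.18% of all genes). At an unadjusted p under 0.05, 28 were lower and 1 higher, against 2855 and 674 of all 12644 genes tested. A total of 31 of the 36 had a lower mean in late cells of both lines, as had 46.4% of all genes. The median change of the list was -1.20, with -0.60 in Dunn and -1.88 in LM8. With the percentile over bright probes 12 of the 36 moved the same way lower, and the list's median was -1.02 where that of all genes was 0.03. Without late Dunn replicate 1 the number was 19. In the unscaled deposited table it was 3, with a list median of -0.52 against 0.52 for all genes.

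The leading members were sensors and effectors of the antiviral state. Oasl2, an oligoadenylate synthetase-like protein, was -1.85, -1.70 and -2.44 in early Dunn and -5.73, -4.78 and -3.71 in late Dunn. In LM8 it was -0.73, -0.75 and -1.65 early and -5.38, -5.80 and -6.19 late. Every late array lay below every early array, and the fall was 6.68-fold in Dunn and 26.9-fold in LM8 (pooled change -3.75 ± 0.44, adjusted p = 0.000829). Oas1a, an oligoadenylate synthetase that activates RNase L, was brighter, at 1.03, 1.39 and 1.33 in early and -0.97, -1.91 and -0.76 in late Dunn, and 2.40, 2.64 and 1.29 in early and -2.22, -3.14 and -3.30 in late LM8. It fell 5.52-fold in Dunn and 31.9-fold in LM8 (adjusted p = 0.00135), and a second probe gave -3.39. Oas1a belongs to a cluster of close copies whose transcripts one probe may not separate.

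Rtp4, a chaperone that interferon induces, was -0.48, -0.90 and -0.13 in early Dunn and -1.55, -2.79 and -2.56 in late Dunn, and 0.55, 0.59 and -0.71 in early LM8 against -4.45, -5.06 and -5.38 in late LM8. Its fall of 34.5-fold in LM8 was larger than that of 3.48-fold in Dunn (interaction adjusted p = 0.0228). Usp18, which removes ISG15 from proteins and dampens interferon receptor signalling, fell 3.28-fold in Dunn and 9.53-fold in LM8 (adjusted p = 0.00231). The early LM8 array of slide 3 was the lowest of the 3 early LM8 arrays for Oasl2, Oas1a, Rtp4 and Usp18, yet stayed above every late LM8 array.

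The remaining 11 members that fell in both lines covered other steps of the pathway. Ddx58 and Ifih1, which encode the RNA sensors RIG-I and MDA5, changed by -1.78 ± 0.24 and -1.40 ± 0.17 (SE, pooled, adjusted p = 0.0022 and 0.00102). Irf9, the DNA-binding subunit of the interferon-activated complex, changed by -1.58 ± 0.23 and Isg15, the ubiquitin-like modifier, by -1.68 ± 0.23 (adjusted p = 0.00288 and 0.00244). Isg15 was bright, at 2.86 to 3.08 on the early and 1.56 to 1.87 on the late Dunn arrays, and 2.72 to 3.41 on the early and 0.37 to 1.38 on the late LM8 arrays. The others were Oasl1 (-2.12), Igtp (-2.09), Xaf1 (-1.22), Isg20 (-1.18), Ifi35 (-0.82), Ifitm3 (-0.78) and Dtx3l (-0.64). Oas2, Gbp3 and Ifit1 passed the pooled test at -2.16, -2.13 and -2.02, but their groups overlapped in Dunn.

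Of the 18 members without a call, 14 were below 0 and 4 above, with 10 lower and 1 higher at an unadjusted p under 0.05. At that threshold 2855 of all 12644 genes tested were lower and 674 higher, called genes included. Irf1, the factor that responds first to interferon gamma, stood at 0.11 ± 0.14 and Eif2ak2, the RNA-activated kinase PKR, at 0.05 ± 0.32, while Gbp6 was at 0.82 ± 0.30 (adjusted p = 0.655, 0.943 and 0.114). Stat2 was at -0.51 and Irf7 at -1.39 (adjusted p = 0.169 and 0.196). The mean fall was larger in LM8 than in Dunn for 29 of the 36 members, and the test of that difference called 3 of them, Rtp4, Gbp3 and Gbp7. By each line's own test 11 members were lower in Dunn and 20 in LM8.

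The promoter windows of these genes, from 250 bases before to 50 after each annotated start in RefSeq (GRCm38.p6), were searched on both strands for the core of the interferon-stimulated response element, spelled GAAA, any 2 bases and GAAA again, with overlapping matches counted. Of the tested members, 28 had a window and 16 of them (57.1%) held the motif, against 3.42% of all tested genes with a window and 3.44% of all windows. Among members that fell in both lines the share was 6 of 13 (46.2%), and among those that did not it was 10 of 15 (66.7%). The search fixes all but 2 of the 10 letters of a core, so the cores are alike by definition. Stretches of 28 or 30 bases around 1 match in each of the 6 genes are printed here. They read 5′ to 3′ on the strand of the gene, and capitals mark the match, which in Ddx58 lies on the opposite strand:
Oas1a: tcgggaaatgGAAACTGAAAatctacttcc
Igtp: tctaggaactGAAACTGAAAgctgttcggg
Isg15: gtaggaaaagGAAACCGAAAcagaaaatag
Ifih1: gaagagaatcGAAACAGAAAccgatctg
Ifitm3: aaacttctgaGAAACCGAAActgccgcaga
Ddx58: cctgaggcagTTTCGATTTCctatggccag
These lie at chr5:120907520-120907549 (Oas1a, minus strand), chr11:58199512-58199541 (Igtp, plus), chr4:156200871-156200900 (Isg15, minus), chr2:62646206-62646233 (Ifih1, minus), chr7:141010706-141010735 (Ifitm3, minus) and chr4:40239804-40239833 (Ddx58, minus). Oas1a carried 2 overlapping matches, Isg15 carried 3 and Ifitm3 carried 2, and their matches not printed have other letters at the 2 free bases. The printed cores of Oas1a and Igtp are the same 10 letters, and these genes changed by -3.73 and -2.09 on the log2 scale. Those of Isg15 and Ifitm3 are also the same as each other, and these genes changed by -1.68 and -0.78. Over all genes with a window that moved the same way, 29 of the 492 that fell (5.89%) and 1 of the 83 that rose (1.2%) held the motif.

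**Figure D3:**
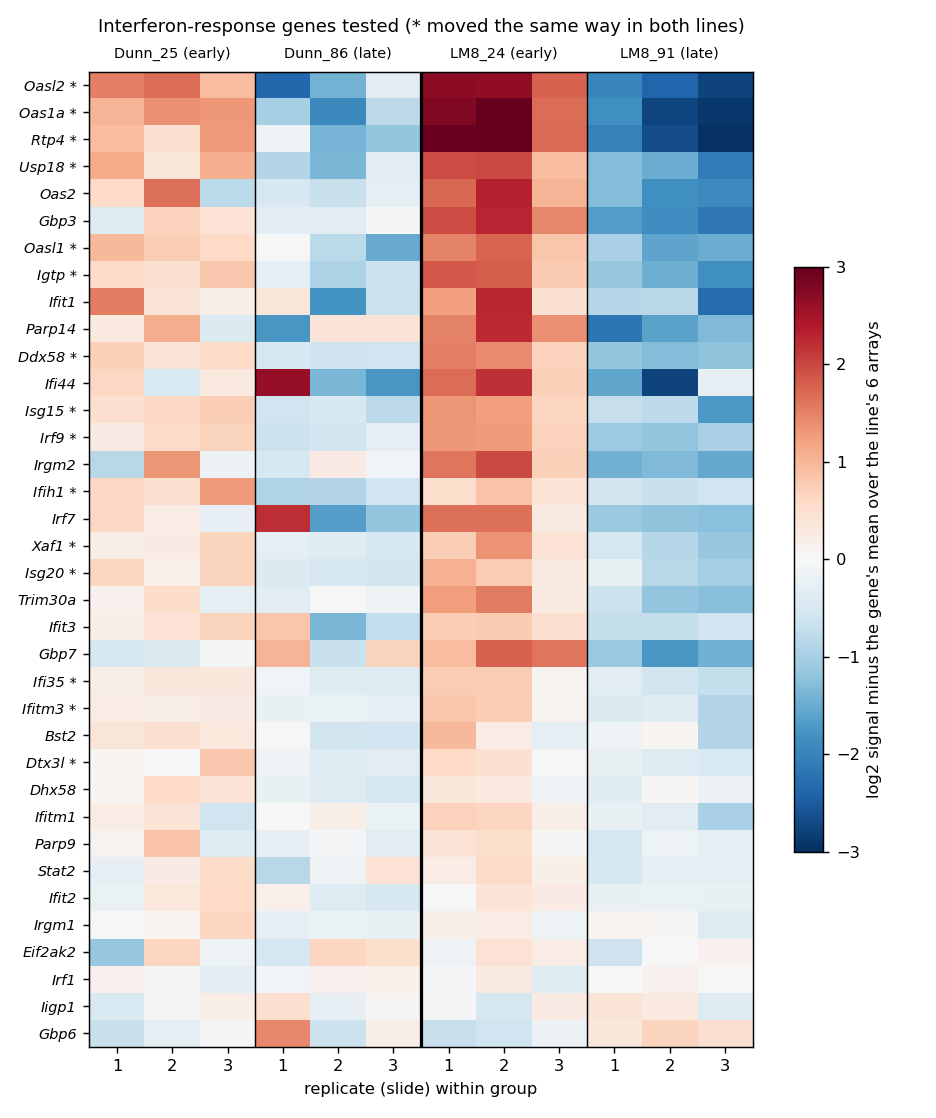
Heat map of the 36 interferon-response genes tested (rows, ordered by pooled change) on the 12 arrays (columns, by group and slide). Colour is the log2 signal minus the gene's mean over the 6 arrays of its line and is cut off at 3 in either direction, and an asterisk marks the 15 genes that moved the same way. Early arrays are red and late arrays blue for the upper rows, more so in LM8, while Irf1, Iigp1 and Gbp6 at the bottom show no fall.

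Antigen presentation moved to a lesser extent, with 3 of 22 tested genes (13.6%) lower in both lines and a median change of -0.49. The members were Psmb9 and Psmb8, interferon-inducible catalytic subunits of the immunoproteasome, and Tap1, a subunit of the peptide transporter that loads class I molecules. Psmb9 was 4.40, 4.25 and 4.57 in early and 2.40, 1.90 and 2.02 in late Dunn, and 1.91, 1.89 and 1.05 in early and -0.01, 0.15 and -0.24 in late LM8. It fell 4.92-fold in Dunn and 3.14-fold in LM8 (adjusted p = 0.000344), Psmb8 fell 2.31-fold and 3.38-fold (adjusted p = 0.00183), and Tap1 fell 2.85-fold and 2.11-fold (adjusted p = 0.00205). These 3 genes lie together in the major histocompatibility region of chromosome 17. The class I heavy chains H2-D1 and H2-K1 (-0.83 and -0.53) and the light chain B2m (-0.36) did not pass the test (adjusted p = 0.111, 0.343 and 0.474).

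Of the complement and acute phase list, 4 of 22 genes (18.2%) were lower in both lines, but for 2 of them only the Dunn values were measurable. C2 and Cfb, components of the complement convertases, fell 21-fold and 15.2-fold in Dunn (adjusted p = 6.03e-06 and 0.00258 for the change within Dunn), while in LM8 both were below background on all 6 arrays. C1s1, a protease of the first complement complex, fell 1.97-fold in Dunn and 1.79-fold in LM8 (pooled adjusted p = 0.00787). C1qtnf1, a secreted C1q-related protein, fell 4.26-fold in Dunn and 1.43-fold in LM8, whereas its second probe gave -0.48 in Dunn and -0.84 in LM8 (pooled adjusted p = 0.155). C2 and Cfb lost their calls under quantile normalization (adjusted p = 0.0561 for each).

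The basement membrane list held 5 genes of 17 tested (29.4%) that fell in both lines and 1 (5.88%) that rose. Col4a1 and Col4a2 encode the chains of the common form of type IV collagen. Col4a2 was 0.91, 0.61 and 1.28 in early Dunn and -2.44, -5.84 and -5.29 in late Dunn, and -3.60, -3.75 and -3.44 in early LM8 against -8.08, -8.28 and -8.89 in late LM8. Col4a1 was 0.45, 0.42 and 0.82 in early Dunn and -2.11, -3.01 and -3.33 in late Dunn, and -2.51, -2.47 and -3.22 in early LM8 against -4.43, -3.99 and -4.78 in late LM8. Both genes were thus lower in early LM8 than in early Dunn already, and lower again in late LM8. Col4a2 fell 43.9-fold in Dunn, or 90.3-fold without late Dunn replicate 1, and at least 8.55-fold in LM8, where late arrays were below background (pooled change -5.14 ± 0.48, adjusted p = 0.000239). Col4a1 fell 10.4-fold in Dunn and 3.17-fold in LM8 (pooled change -2.52 ± 0.34, adjusted p = 0.00207). The genes lie on opposite strands, and their annotated starts at positions 11312826 (Col4a1, minus strand) and 11312805 (Col4a2, plus strand) of chromosome 8 in GRCm38.p6 lie 21 bases apart.

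Lama5, the laminin alpha-5 chain, fell 4.42-fold in Dunn, where 1 of 3 late and 2 of 3 early arrays were well above background, and 3.55-fold in LM8 (adjusted p = 0.000316). Nid2, nidogen-2, which links laminin to collagen, fell 2.62-fold and 1.63-fold, a call lost with the percentile over bright probes (adjusted p = 0.0439 and 0.129). The laminin beta-2 gene Lamb2 was the fifth to fall, at -0.82. Lama2, the laminin alpha-2 chain of muscle and nerve, rose from below background in both early groups, by at least 1.25-fold in Dunn and at least 2.9-fold in LM8 (adjusted p = 0.0164), while its other probe gave 0.89 (adjusted p = 0.16). With the percentile over bright probes 3 genes fell, and the list's median minus that of all genes was -0.26 under the main and -0.25 under that scaling.

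Integrins and focal adhesions fell in 6 of 32 tested genes (18.8%) and rose in 1. Itga11, the collagen-binding integrin alpha-11 chain of mesenchymal cells, was 3.87, 3.50 and 4.13 in early and 2.12, 2.21 and 2.30 in late Dunn, and 2.74, 2.42 and 2.37 in early and -1.48, -2.19 and -2.35 in late LM8. Its fall of 22.9-fold in LM8 exceeded that of 3.08-fold in Dunn (pooled adjusted p = 0.00374, interaction adjusted p = 0.00233). Itga1, another collagen-binding integrin chain, fell 2.64-fold and 1.68-fold (adjusted p = 0.00861), but its second probe stood at -0.02. Itgb7 changed by -0.80 and the adaptor talin-1 gene Tln1 by -0.72, and the adaptor Parvb rose by 0.69 ± 0.15 (adjusted p = 0.0228). The collagen and fibronectin receptor chains Itgb1 and Itga5 (-0.48 and -0.43) and the kinase Ptk2 (-0.21) did not pass. With the percentile over bright probes the number of falls was 3, among which Tln1 no longer was.

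Fibrillar collagens and their processing had 1 fall in 25, Lox, the enzyme that cross-links collagen, which fell 31.2-fold in Dunn, where 1 of 3 late arrays was well above background, and 3.06-fold in LM8 (adjusted p = 0.00643). Without late Dunn replicate 1 this list had 5 falls, and the next 2 lists also had 5 each. Among proteoglycans, elastic fibres and matricellular proteins 3 of 35 (8.57%) fell, against 4.82% of all genes. Ogn, the small proteoglycan osteoglycin, fell 9.94-fold in Dunn and 9.85-fold in LM8 (adjusted p = 0.00638). In Dunn, 2 of 3 arrays of each group were well above background for Ogn. Its early Dunn values were -2.22, 0.33 and 1.51, and its highest late Dunn value was -2.46. Fbln5, the elastic fibre protein fibulin-5, fell 3.43-fold and 2.39-fold (adjusted p = 0.000247), with Emilin2 at -0.88. Among matrix proteases and their inhibitors 3 of 23 (13%) fell, against 4.82% of all genes, and 1 fell with the percentile over bright probes. Timp2, an inhibitor of metalloproteinases, fell 1.71-fold in Dunn and 60.6-fold in LM8, a difference that passed the interaction test (adjusted p = 0.000774). In the test of the change within Dunn, Timp2 did not pass (adjusted p = 0.222), and it lost its pooled call in 11 of 25 alternatives. The metalloproteinases Mmp11 and Mmp14 changed by -0.95 ± 0.12 and -0.60 ± 0.13 (adjusted p = 0.00181 and 0.0216).

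Contractile and actin genes were lower on the pooled test in 9 of 24 cases (6.53% of all genes) and fell in both lines without overlap in 4 (16.7%), with a median change of -0.49. Tpm2, beta-tropomyosin, was 3.83, 3.26 and 4.05 in early and 1.499, 0.99 and 1.47 in late Dunn, and 2.57, 2.16 and 2.15 in early and 0.99, 0.83 and 0.77 in late LM8 (pooled change -1.91 ± 0.22, adjusted p = 0.000755). Mylk, myosin light chain kinase, fell 1.97-fold in Dunn and 7.3-fold in LM8 (interaction adjusted p = 0.0484). Pdlim7, an actin-associated adaptor, and Mrtfb, a coactivator of serum response factor that actin regulates, changed by -0.83 and -0.78. Acta2, Acta1, Ankrd1 and Myl9 passed the pooled test between -2.97 and -1.41, but not on every array, and desmin, Des, was higher on that test at 1.33.

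The insulin-like growth factor axis had 5 of 14 tested genes (35.7%) lower in both lines and none higher. Irs2, the adaptor that carries insulin and IGF receptor signals, was 0.20, -0.36 and 0.19 in early Dunn and -5.54, -5.88 and -5.47, below background, in late Dunn. In LM8 it was -3.90, -3.91 and -4.20 early and -6.31, -5.13 and -5.69 late. The fall of at least 36.5-fold in Dunn was larger than that of 3.26-fold in LM8 (pooled adjusted p = 0.00645, interaction adjusted p = 0.000791). Htra3, a serine protease that cleaves IGF binding proteins, fell 5.87-fold in Dunn and 1.63-fold in LM8, and Igfbp5, an abundant binding protein of bone, fell 1.3-fold in Dunn and 3.57-fold in LM8 (adjusted p = 0.0148 and 0.0384). The RNA-binding protein gene Igf2bp2 changed by -0.78 and the receptor gene Igf2r by -0.57, while a second Igf2bp2 probe gave -0.18. Igf1r and Irs1 (0.33 and 0.22) did not pass. Igfbp5 and Igf2r lost their calls with the percentile over bright probes, which left 3 of 14.

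Signals of other families moved in single members. Wnt signalling had 3 rises and 3 falls in 34 genes (8.82% each way, against 0.87% and 4.82% of all genes). Apcdd1, a membrane inhibitor of Wnt signals, rose 2.75-fold in Dunn and 4.21-fold in LM8 (adjusted p = 0.000555), Sfrp4, a secreted inhibitor, rose 2.58-fold in each (adjusted p = 0.0128), and the ligand gene Wnt6 rose 5.02-fold and 1.51-fold (adjusted p = 0.0488). Rnf43, a ligase that removes Wnt receptors, fell 1.99-fold and 5.59-fold (interaction adjusted p = 0.0239), and the receptor gene Fzd8 fell 1.96-fold and 3.53-fold (adjusted p = 0.00144). Wnt5b changed by -0.62, and its call and that of Wnt6 were lost with the percentile over bright probes and without late Dunn replicate 1. With the slide as a block, Wnt5b had an adjusted p of 0.0577.

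In the TGF-beta and BMP list 3 of 42 genes (7.14%) fell and 1 (2.38%) rose, against 4.82% and 0.87% of all genes. Bmp7, a bone morphogenetic protein, rose 1.93-fold in Dunn and at least 6.29-fold in LM8, where early arrays were below background (adjusted p = 0.011). The ligand genes Bmp4 and Tgfb1 and the latency protein gene Ltbp4 changed by -0.67, -0.75 and -0.75 (adjusted p = 0.0123, 0.022 and 0.0075). Among FGF and PDGF genes Fgf15, a secreted growth factor of embryo and intestine, was -0.89, -1.07 and -0.58 in early and -2.47, -4.45 and -4.91 in late Dunn, and 0.41, 0.07 and -0.33 in early and -0.77, -1.15 and -1.60 in late LM8 (pooled change -2.16 ± 0.45, adjusted p = 0.0185). Etv4, an ETS factor induced by FGF signals, rose 5.9-fold in Dunn and 2.82-fold in LM8 (adjusted p = 0.00111), and a second probe gave 2.19. In the Notch list 2 of 17 genes (11.8%) fell, against 4.82% of all genes, and 1 fell with the percentile over bright probes. The ligand gene Dll3 and the glycosyltransferase gene Lfng changed by -1.15 and -0.70. A second Dll3 probe gave -0.97 in Dunn and 0.08 in LM8 (pooled adjusted p = 0.628). Of 14 genes in the Hedgehog list, 0 moved the same way or passed the pooled limma test. At an unadjusted p under 0.05, 1 of the 14 was lower and 0 higher, against 2855 and 674 of all 12644 genes tested.

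Epas1, which encodes the hypoxia factor HIF-2 alpha, was 4.51, 4.46 and 4.57 in early and 2.33, 2.73 and 2.80 in late Dunn, and 2.53, 2.76 and 2.46 in early and 0.91, 1.38 and 1.93 in late LM8. It fell 3.72-fold and 2.27-fold (adjusted p = 0.00181). Of its other 2 probes, one gave -1.73 and the other -0.34 (adjusted p = 0.0269 and 0.18). Of the 26 hypoxia and angiogenesis genes tested, it was 1 of 2 (7.69%, against 4.82% of all genes) that fell in both lines, with Pgf, placental growth factor, at -0.66.

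Lineage regulators moved in a few members. Of 33 mesenchymal transcription factors, 4 (12.1%, against 4.82% of all genes) fell in both lines, among them Twist2, Prrx2 and Scx. Prrx2, a homeobox factor of limb and jaw mesenchyme, was 0.89, 0.77 and 0.23 in early and -2.39, -2.61 and -2.69 in late LM8. In Dunn, 1 of 3 early arrays and no late array was well above background, and the pooled change was -3.12 ± 0.35 (adjusted p = 0.000735). Scx, the tendon factor scleraxis, fell 2.59-fold in Dunn and 3.23-fold in LM8 (adjusted p = 0.0084), and Osr2 rose by 0.82 ± 0.15 (adjusted p = 0.0119). Osteoblast differentiation had 1 fall in 25 genes, the parathyroid hormone receptor gene Pth1r at -0.73 (adjusted p = 0.0244), while Runx2, Sp7, Ibsp and Col1a1 stood at -0.22, 0.19, 0.17 and 0.06 with adjusted p from 0.559 to 0.809. In the chondrocyte and adipocyte list 2 of 19 (10.5%) rose, Col10a1, the collagen of hypertrophic cartilage (pooled change 2.43 ± 0.18, adjusted p = 7.91e-05), and Hapln1, a cartilage link protein (2.62 ± 0.66, adjusted p = 0.0392), whose call was lost in 13 of 24 alternatives, among them quantile normalization (adjusted p = 0.0527). Hoxa2 and Hoxa4, 2 of 27 Hox genes (7.41%, against 4.82% of all genes), changed by -0.63 and -0.57. Hoxa4 lost its call in 16 of 25 alternatives, among them quantile normalization (adjusted p = 0.183).

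The largest shared rises were in germline genes. Nlrp4c, an oocyte-type member of the NLR family, was -5.61, -2.74 and -2.13 in early Dunn and 1.25, 1.498 and 1.52 in late Dunn. In LM8 it was -8.05, -7.41 and -8.61, below background, early and 0.40, -0.22 and 0.41 late. It rose 30.1-fold in Dunn and at least 92.4-fold in LM8 (pooled change 6.57 ± 0.69, adjusted p = 0.00044), and a second probe gave 4.58. Close copies of Nlrp4c may share its probe.

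Rhox5, the founding gene of the reproductive homeobox cluster on the X chromosome, was -0.14, -0.18 and -0.41 in early Dunn and 3.25, 3.04 and 3.16 in late Dunn, and -4.19, -4.20 and -4.62 in early LM8 against 1.60, 1.52 and 1.35 in late LM8. It was measured on every array and rose 10.5-fold in Dunn and 56.9-fold in LM8 (pooled change 4.61 ± 0.38, adjusted p = 0.000152). Rhox2c of the same cluster was -1.82, -1.79 and -1.81 in early and 0.58, 0.44 and -0.34 in late Dunn, and -7.01, -5.41 and -7.10 in early and 1.00, 0.77 and 0.78 in late LM8 (pooled change 4.69 ± 0.83, adjusted p = 0.0087). Both rose more in LM8, which started lower and ended below the level of late Dunn for Rhox5 and above it for Rhox2c (interaction adjusted p = 0.000774 for Rhox5 and 0.000922 for Rhox2c). Of the germline and reproductive homeobox list, 12 of 55 genes were tested and 3 (25%, against 0.87% of all genes) rose. Of the 12, 5 were tested only because a late group was bright, Nlrp4c among them. The count stayed at 3 under both percentile scalings and quantile normalization, and was 2 without slide 1 and 1 among probes well above background on every array.

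X-linked genes were 3.38% of genes tested, 15 of the 110 that rose (13.6%), 14 of the 52 that rose over 2-fold in each line (26.9%) and 13 of the 609 that fell (2.13%). With the percentile over bright probes they were 18 of 177 rises (10.2%), and among probes well above background on every array 5 of 55 (9.09%). Of the 15, 6 were tested only because a late group was bright, namely Gm10439, Gm10487, Gm15085, Luzp4, Ssxb1 and Was. Besides Rhox5, Rhox2c and Rhox2e, they were Gm10439, Ssxb1, Luzp4, Gm15085, Gm10487, Gm5935, 3830403N18Rik, Gm16430, Was, Gm5168, Gm2012 and Slx, and those outside the naming rule were named after their values were seen. Many belong to multicopy families of near-identical genes, so that a probe may read several copies and these are not 15 independent rises. Gm10439 was below background in early LM8 and rose 5.69-fold in Dunn, where 1 of 3 early arrays was well above background, and at least 16.8-fold in LM8 (adjusted p = 0.000877). Ssxb1, a relative of the synovial sarcoma X breakpoint genes, rose at least 1.91-fold in Dunn and 41.8-fold in LM8 (adjusted p = 0.00278), Gm5935 rose 3.31-fold and 15.8-fold (adjusted p = 0.00218), and Gm10487 rose 4.67-fold and 21.9-fold (adjusted p = 0.00513). Slx, a testis gene of the synaptonemal complex protein family, rose by 1.27 ± 0.29 (adjusted p = 0.0263).

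**Figure D4:**
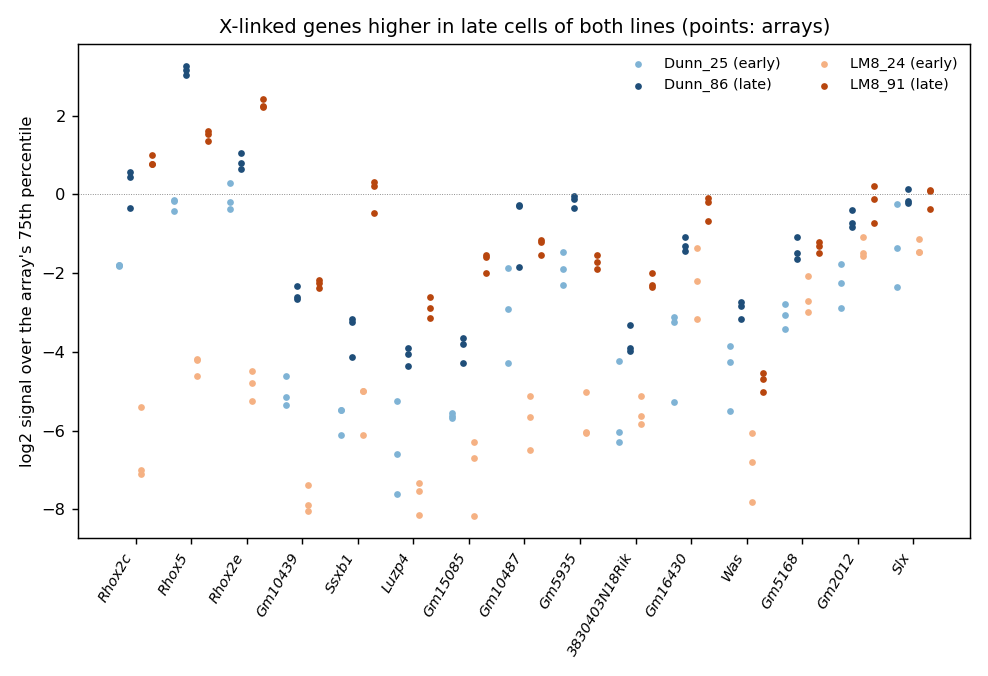
Log2 signal over the array's 75th percentile (vertical axis) of the 15 X-linked genes that rose in both lines (horizontal axis, ordered by pooled change). Each point is an array, coloured by group, with early arrays in light and late arrays in dark shades. Late points lie above early points in both lines, with the widest gaps in LM8 for Rhox2c and Rhox2e.

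Outside the X chromosome, Gas7, a growth-arrest gene whose protein binds actin and membranes, was below background on all early arrays of both lines and on no late array. It was -4.49, -5.09 and -4.07 in early and -0.44, -0.58 and -0.30 in late Dunn, and -6.77, -7.78 and -7.71 in early and -4.07, -3.48 and -2.58 in late LM8. The rise was at least 13.4-fold in Dunn and at least 7.76-fold in LM8 (pooled change 4.08 ± 0.28, adjusted p = 4.1e-05), and a second probe gave 2.06. Zfp979 and Zfp982, zinc finger genes of a cluster on chromosome 4 with many close copies, rose by 3.70 ± 0.38 and 3.13 ± 0.41 (adjusted p = 0.000348 and 0.00181), with a second Zfp979 probe at 1.20 (adjusted p = 0.0659). Among the 39 tested genes of DNA methylation and chromatin silencing, the methyltransferase genes Dnmt1 and Dnmt3b and their partner Uhrf1 stood at -0.40, 0.23 and -0.26 (adjusted p = 0.123, 0.646 and 0.437). Of 26 imprinted genes, 2 rose and 2 fell (7.69% each way, against 0.87% and 4.82% of all genes). The list's median was -0.16, beside -0.15 for all genes. Mest and Peg12 were higher (0.82 and 0.58) and Slc38a4 and Igf2r lower (-1.11 and -0.57). With the percentile over bright probes 2 rose and 0 fell, and a second Peg12 probe gave 0.32 (adjusted p = 0.435).

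Among lysosome and autophagy genes 5 of 35 (14.3%) fell and 0 rose, against 4.82% and 0.87% of all genes. A lower mean in both lines was seen for 27 of the 35, as for 46.4% of all genes. Ctsk, cathepsin K, the collagen-degrading protease of osteoclasts and some tumour cells, was -0.85, -0.76 and -1.13 in early and -6.71, -6.09 and -5.58 in late LM8, a 37.1-fold fall. In Dunn it was well above background on 1 early array only (pooled change -3.77 ± 0.49, adjusted p = 0.00157). Ctsh, cathepsin H, fell 3.41-fold in Dunn and 2.31-fold in LM8, and Mcoln1, the lysosomal calcium channel mucolipin-1, fell 2.39-fold and 1.61-fold (adjusted p = 0.000555 and 0.00426). Naglu and Glb1, hydrolases of glycans, changed by -0.73 and -0.64.

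Of 32 drug and metabolite transporters 4 (12.5%) fell, against 4.82% of all genes. Abcg2, the drug exporter that marks side population cells, was 2.27, 2.56 and 2.53 in early and 1.29, 1.32 and 1.19 in late Dunn, and -0.31, -0.36 and -0.94 in early and -3.17, -3.80 and -3.72 in late LM8, with the larger fall in LM8 (interaction adjusted p = 0.0157). Slc38a1, a glutamine transporter, fell 2.4-fold and 3.9-fold, and the iron exporter gene Slc40a1 fell 1.57-fold and 4.44-fold (adjusted p = 0.000877 and 0.017), with Abca7 at -0.74.

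Metabolic, stress and growth genes moved in 1 or a few members of the lists given here. Falls were seen in 3 of 28 amino acid and unfolded protein stress genes and 2 of 30 oxidative stress and metal response genes. They were also seen in 2 of 28 p53 targets and kinase inhibitors and 2 of 23 serum and immediate early genes. Each of these 4 shares was above the 4.82% of all genes, and rises numbered 0, 0, 0 and 1. With the percentile over bright probes the falls numbered 1, 2, 1 and 2. Aldoc, aldolase C, was the 1 riser of 29 glycolysis genes, 6.63-fold in Dunn and 3.06-fold in LM8 (adjusted p = 0.000344), and Eno3, the muscle enolase, the 1 that fell (-1.12). Atp5a1, a subunit of ATP synthase, rose by 2.10 ± 0.51 (adjusted p = 0.0352, and 0.0508 with the slide as a block), alone among 41 genes of oxidative phosphorylation. Ddit3, the stress factor CHOP, changed by -0.92 ± 0.15, with Dnajb9 and Sesn2 at -0.79 and -0.55, and the glutathione transferases Gstm1 and Gstm2, which share sequence, changed by -0.88 and -0.82. Among p53 targets and cyclin-dependent kinase inhibitors Gadd45g fell by 1.13 and Cdkn1a, the inhibitor p21, by 0.71 on the log2 scale (adjusted p = 0.00591 and 0.0146), although a second Cdkn1a probe stood at -0.23 (adjusted p = 0.502). The immediate early genes Fosl1 and Nr4a2 changed by -1.90 ± 0.18 and -1.09 ± 0.15 (adjusted p = 0.000239 and 0.00206), and the phosphatase gene Dusp2 rose by 1.01.

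Genes of cell division held no shared change by this rule. None of 40 DNA replication genes, 33 mitosis genes, 42 ribosomal protein genes, 31 proteasome genes, 33 sterol and fatty acid synthesis genes or 13 chemokines and cytokines moved the same way. On the pooled test of limma, 1 of the mitosis, 1 of the ribosomal and 2 of the chemokine genes were lower. Of the 192 genes of these 6 lists, 0 were higher on that test. At an unadjusted p under 0.05, 34 of the 192 were lower and 5 higher, against 2855 and 674 of all 12644 genes tested. Their median changes, from -0.35 for chemokines to -0.05 for DNA replication, lay around the -0.15 of all genes.

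**Figure D5:**
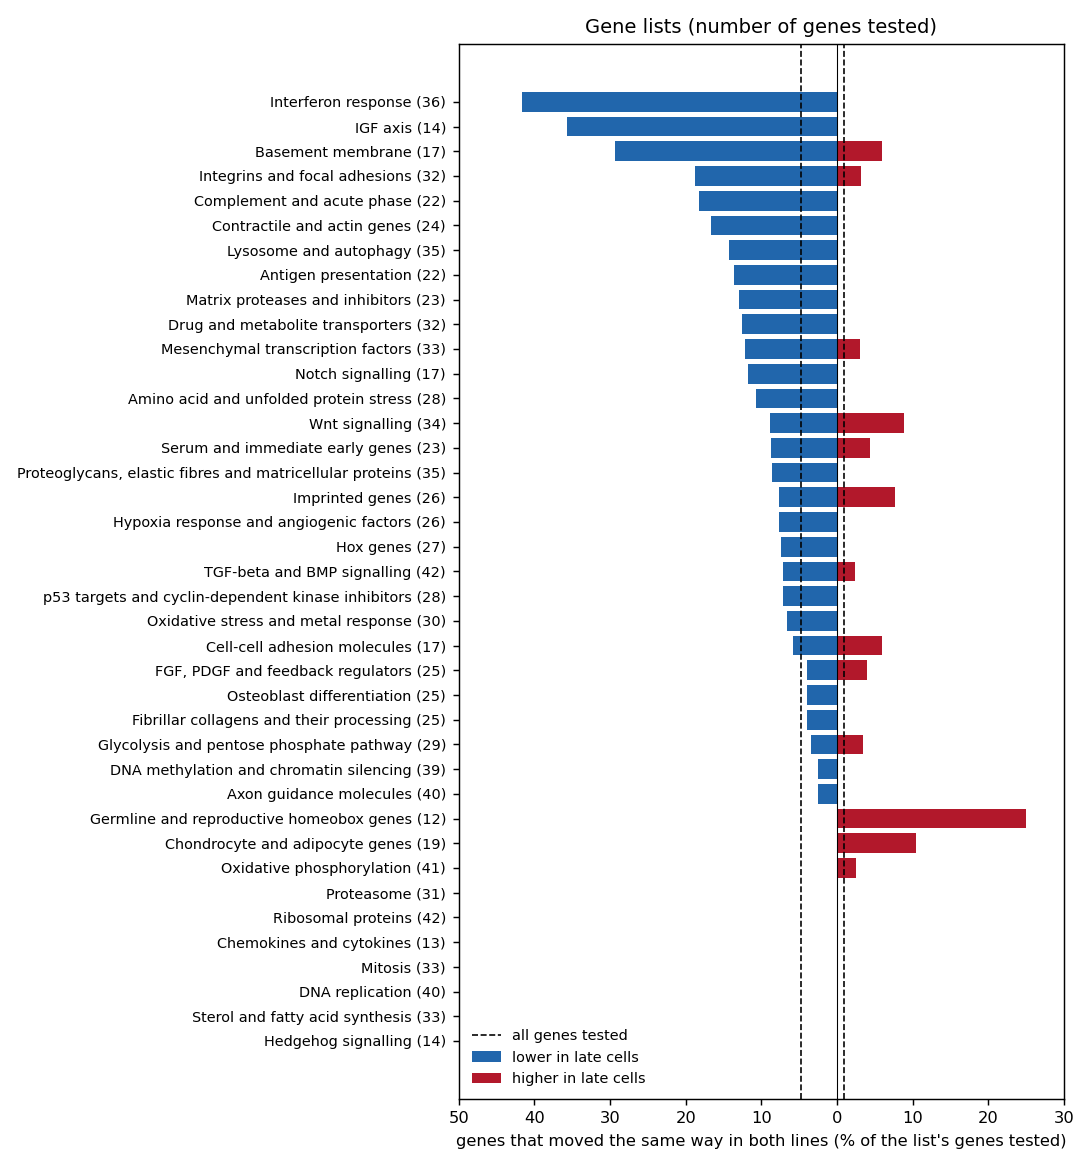
Share of each gene list (rows, with the number of genes tested in parentheses) that fell in both lines (blue, to the left) or rose in both lines (red, to the right), in percent of the genes tested. Dashed lines mark 4.82% lower and 0.87% higher over all genes tested. Interferon response (41.7%), IGF axis (35.7%) and basement membrane (29.4%) reach farthest to the left, and germline and reproductive homeobox genes (25%) farthest to the right.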

How the data were processed

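RNA of early and late passage Dunn and LM8 cells was labelled with Cy3 and hybridised to 12 Agilent mouse 4x44k arrays, 3 for each of the 4 groups in the labels. The authors deposited the Agilent Feature Extraction 10.7.3 files, in which the processed signal is a background-subtracted intensity per spot, not scaled between arrays. They also deposited a table of all arrays, which holds the same intensity rounded and was used as an alternative.

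The 43020 spots other than controls gave 39429 probes, as means of repeated spots with outlier spots left out. From each log2 signal the array's 75th percentile was taken off, since the methods name no normalization of these arrays. Accessions of the files matched 26581 probes (67.4%) to 20144 genes of RefSeq on GRCm38.p6. The test took in 21882 probes, those well above background in every array of at least 1 of the groups, and a gene was represented by its brightest probe. Where a spot was left out on an array, the fit used the others, which touched 1325 of the 12644 genes.

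The late against early test used lmFit and eBayes of limma 3.58.1 (R 4.3.3), with line and stage as terms. Changes within each line and their difference came from a fit of the 4 groups. P-values were adjusted over all probes tested by Benjamini-Hochberg. "At least" folds set the bright group against the higher of the dim signal and the lowest signal well above background. Promoter windows were searched in Python 3.11.15 with pandas 2.3.3, and plots were drawn with matplotlib 3.10.9.

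Genes were named by rule. They are the 10 with the largest mean rise and the 10 with the largest mean fall that moved the same way over 2-fold in each line with the bright groups well above background, the genes the study names as changed with passage in both mouse lines, and up to 4 in each direction from each of 39 lists. Other list members are given as values, and some genes that the rule names are not reported here. The rule, the members and the lists were chosen with earlier results of these data known.

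The arrays of 1 replicate number shared a slide, always with each group at the same position, so position cannot be told apart from group. Deviations from the group means of same-numbered arrays correlated at 0.103 to 0.504 in 18 pairs, and all 12 arrays correlated best with their own number, so the numbers pair the samples through the slide. Alternatives were the slide as a blocking term, quantile normalization, the percentile over probes well above background on all arrays, the unscaled table, the fit of the 4 groups, normexp (offset 50, on the median signal, since the files hold no mean signal), a floor on dim signals, no filter, a stricter filter, array quality weights, the methods' t-test, the mean over a gene's probes and leaving out each array. Leaving out slide 1, and leaving out arrays in the tests of single lines, were added after the data were seen. On simulated arrays (21882 probes, 200 changed), 57% of 2-fold and 74% of 4-fold changes were recovered by the pooled test. It made 10 false calls, 7.09% of the calls. The simulation held a smaller share of changes than the 7.71% of genes called in the data. The number of arrays limits the precision.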

Additional observations from a re-analysis of the deposited data

Results flagged for a closer look

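For 19 named genes that moved the same way, the size of the change differed between the lines by the interaction test at an adjusted p under 0.05. Values are the LM8 change minus the Dunn change on the log2 scale, from 3 arrays a group. Among the genes that rose, the change was larger in LM8 for Rhox2c (5.33), Rhox5 (2.44), Gm10439 (2.997), Ssxb1 (3.21), Gm5935 (2.25) and Bmp7 (2.37). All of these but Bmp7 are X-linked, and their mean early LM8 signals lay between -7.77 and -4.34, with Gm10439 and Bmp7 below background on all 3 early LM8 arrays. Among the genes that fell, the fall was larger in LM8 for Timp2 (-5.15), Rtp4 (-3.31), Itga11 (-2.89), Ctsk (-2.89), Mylk (-1.89), Abcg2 (-1.85) and Rnf43 (-1.49). It was larger in Dunn for Irs2 (3.93), Gm1673 (3.77), C2 (3.52), Lox (3.35), Htra3 (1.84) and C1qtnf1 (1.58). Only 1 of 3 late Dunn arrays for Lox was well above background, and a second C1qtnf1 probe gave -0.48 in Dunn and -0.84 in LM8. C2 was below background on all LM8 arrays, so its difference compares a measured fall with dim signals. In early cells the mean Irs2 signal was 0.01 in Dunn and -4.00 in LM8, and that of Lox -0.16 in Dunn and 1.58 in LM8. Across all genes tested the difference passed for 2.4%. A difference between lines and a difference between the stocks that were grown cannot be told apart.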

How the results depend on the processing

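Of 104 named genes, 73 could be run under all 25 alternatives and 31 under 24, since the stricter filter removed them. All kept their direction wherever they were run, except 9 that were slightly above 0 in the unscaled deposited table, namely Mmp14 (0.0855), Wnt5b (0.0656), Bmp4 (0.0143), Pgf (0.0243), Sesn2 (0.13), Ephb4 (0.0315), Hoxa2 (0.0461), Hoxa4 (0.11) and Igf2r (0.11). The call was lost in 378 of these comparisons, and 13 of the 73 and 18 of the 31 genes kept it in all that were run. With the direction kept, it was lost in 15 or 16 of 25 for Nid2, Wnt6, Wnt5b, Igfbp5, Sesn2, Hoxa4 and Igf2r, and in 14 of 24 for Cfb. The slide as a block took the call from Wnt5b (adjusted p = 0.0577) and Atp5a1 (adjusted p = 0.0508) and changed no other named call. With this block 116 genes rose and 597 fell in both lines, of which 109 and 579 were the same genes as without it.

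In the pooled fit, genes higher numbered 476 in the unscaled table, 63 without a filter, 98 among probes well above background on all arrays, 286 in the fit of the 4 groups, 336 with array quality weights and 42 without slide 1. Genes lower numbered 406 with the percentile over bright probes, 68 in the unscaled table, 209 without a filter, 1548 with weights and 186 without slide 1. Rises in both lines numbered 177 with the percentile over bright probes, 318 in the unscaled table, 57 without a filter, 55 with the stricter filter and 42 without slide 1, and falls 335, 42 and 198 under the first 3 of these and 184 without slide 1. With weights 1415 genes changed in LM8, and for 476 the change differed between the lines. The cause of these shifts was not tested, except that leaving out slide 1 leaves 8 arrays and the filters change which probes are tested.

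With each array left out in turn there were 81 to 157 genes higher and 374 to 907 lower in the pooled fit, and 72 to 132 rises and 340 to 799 falls in both lines. Falls came to 340 without early LM8 replicate 1, 362 and 392 without late Dunn replicates 2 and 3, and 405 and 374 without late LM8 replicates 2 and 3, and rises to 72 without late LM8 replicate 2. Within the lines the ranges were 562 to 1968 genes for Dunn and 284 to 624 for LM8, and 158 to 412 for the difference. Dunn genes numbered 562 and 624 without late replicates 2 and 3, and 817, 1968 and 722 without early replicates 1, 2 and 3. LM8 genes numbered 295 without early replicate 1 and 284 and 303 without late replicates 2 and 3. The difference passed for 201 genes without late Dunn replicate 3, for 182, 186 and 201 without early LM8 replicates 1, 2 and 3, and for 158 to 185 without 1 of the late LM8 arrays. Without late Dunn replicate 1, the Dunn fall of 9 named genes was over 1.5 times as large, among them Twist2, Amdhd2, Col4a2 and Lxn. The number of interferon genes lower in both lines was 12 to 19 under all alternatives but the unscaled table (3). Dim signals limit the germline list, of which 12 of 55 genes were tested, and the late LM8 levels of Lxn, Twist2 and Col4a2, which were below background.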

Other observations

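Chromosome 9 held 62 of the 609 genes that fell in both lines (10.2%) and 5.67% of the genes tested, and chromosome 10 held 7 of the 52 genes that rose over 2-fold in each line (13.5%) and 4.88% of those tested. Both chromosomes were picked after the shares were seen, and no test was run on them.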
